A study of Homo sapiens with 8 samples.

Results

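Retained intron transcripts of protein-coding genes were followed through the differentiation of SH-SY5Y cells, a human neuroblastoma line used as a model of sympathetic neurons. They were the transcripts that GENCODE 29 gives the type retained_intron in genes of type protein_coding, matched by Ensembl identifier without its version. The deposited table held 25586 of them among 194993 transcripts, in 8954 of 19379 protein-coding genes. A further 1702 annotated transcripts of this kind were not among the rows used here. The choice of members used the annotation alone and no measured value.

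Most introns are removed from a transcript before it leaves the nucleus, and a transcript that keeps one is usually held in the nucleus or destroyed, since the intron tends to bring an early stop codon. Some such transcripts are detained and can be spliced later, and retained introns are known to change as neurons mature. In the annotation the type is broader than the process, because many of its models are partial transcripts with an end inside an intron.

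The libraries came from undifferentiated cells (4, replicates 17 to 20) and from cells given 9-cis retinoic acid at 1 µM over 7 days (4, replicates 21 to 24). 9-cis retinoic acid is a ligand of retinoic acid receptors and of retinoid X receptors. Both groups are the same line, and no source names separate cultures, so p-values measure only the spread between these samples, which may be technical. No day is recorded for the undifferentiated cells, so time in culture and treatment cannot be told apart. Lane 7 held replicates 17 and 18, and lane 8 all others.

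Values were transcript abundances corrected for length (TPM), scaled to a sum of 1000000 in each library, which leaves no trace of depth and allows no counting interval. Of 12 neuroblast markers, TH, which makes the precursor of dopamine, was under 1 TPM in every library. The summed level of the 12 ran from 2420 to 2513 TPM in undifferentiated and from 1535 to 1757 TPM in differentiated cells. Blood markers summed to 1.60 to 1.85 and 21.2 to 24.1 TPM, epithelial markers to 4.98 to 5.85 and 16.1 to 20.3 TPM, endothelial markers to 11.8 to 14.0 and 25 to 31.8 TPM, and Schwann markers to 8.23 to 10.9 and 18.8 to 20.4 TPM. CD3E, HBA1, HBB, KRT5, KRT14, SOX10 and FOXD3 were at 0 in every library, and the part of these genes in the results was not tested. Fewer cells of a type and less RNA per cell cannot be told apart in such samples. Differentiated replicate 22 stood apart in several measures of these transcripts, and results that turn on it are given with and without it.

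The models were short and mostly incomplete. Their median length was 719 bases against 1417 for protein_coding transcripts of the same genes. Only 7484 (29.3%) held a whole intron of a protein_coding transcript inside an exon, and the others covered part of an intron or joined exons differently. The median member had 273 bases outside all protein_coding exons of its gene, and 253 had no such base, so that their reads could be assigned only through shared sequence. The 8491 distinct whole introns had a median length of 228 bases against 1600 over all 160857 introns of protein_coding transcripts of these genes. Of them, 93.3% lay between coding exons, 8285 began with GT and 8414 ended with AG, and 20.2% were the last intron of a transcript against 17.2% of all introns.

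Sequences are printed for introns that called members hold whole, because reads from those bases set such a member apart from the spliced transcripts. The letters are those of GENCODE 29 transcripts on GRCh38, written in the direction of the gene, and capitals mark the first 2 and last 2 bases of each intron. For introns longer than 300 bases only the 2 splice sites are given, each with 3 exon bases, as donor and acceptor. The introns of MST1 (chr3:49686193-49686312, minus strand), INTS3 (chr1:153747071-153747278, plus strand) and SLC4A11 (chr20:3230261-3230514, minus strand) lie between coding exons, are 120, 208 and 254 bases long, and have a GC content of 70.8%, 42.8% and 68.5%.
MST1 intron: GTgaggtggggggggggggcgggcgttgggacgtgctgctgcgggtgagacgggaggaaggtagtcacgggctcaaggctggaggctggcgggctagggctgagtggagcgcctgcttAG
INTS3 intron: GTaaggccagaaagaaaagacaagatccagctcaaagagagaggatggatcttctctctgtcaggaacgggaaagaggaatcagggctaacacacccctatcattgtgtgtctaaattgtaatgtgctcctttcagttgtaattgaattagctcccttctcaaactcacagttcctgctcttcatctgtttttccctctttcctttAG
SLC4A11 intron: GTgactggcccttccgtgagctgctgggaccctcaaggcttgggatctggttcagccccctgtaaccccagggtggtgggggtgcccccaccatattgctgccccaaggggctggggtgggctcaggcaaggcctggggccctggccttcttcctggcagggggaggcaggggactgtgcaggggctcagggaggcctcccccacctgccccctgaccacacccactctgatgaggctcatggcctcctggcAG

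The longer introns are the second of INTS3 (1325 bases, chr1:153747364-153748688), 1 of ABHD17A (2233 bases, chr19:1877688-1879920, minus strand), 1 of TACC2 (339 bases, chr10:122211158-122211496) and the last of VMP1 (1370 bases, chr17:59838398-59839767). The VMP1 member that holds this intron, ENST00000592790, is 1 unspliced exon that also contains the hairpin of MIR21 (chr17:59841266-59841337). Its splice sites and the mature miRNA, taken from RefSeq on GRCh38.p14, were chosen for printing after its values were seen. In the miRNA, capitals mark the seed (bases 2 to 8).
INTS3 donor: cagGTgagtttgatg
INTS3 acceptor: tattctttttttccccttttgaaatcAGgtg
ABHD17A donor: cagGTgagggcgacc
ABHD17A acceptor: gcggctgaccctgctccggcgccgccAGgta
TACC2 donor: gagGTaaccccatcg
TACC2 acceptor: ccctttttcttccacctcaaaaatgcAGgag
VMP1 donor: cagGTaagactttaa
VMP1 acceptor: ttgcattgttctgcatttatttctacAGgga
hsa-miR-21-5p: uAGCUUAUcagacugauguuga

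The total amount of these transcripts did not pass a test between the groups. They made up 7.34%, 7.07%, 6.96% and 7.23% of the TPM of undifferentiated replicates 17 to 20, and 8.0%, 6.05%, 7.08% and 7.70% of that of differentiated replicates 21 to 24. The means were 7.15% ± 0.170 and 7.21% ± 0.862 (SD, n = 4 each), and the groups overlapped (exact permutation test, two-sided, p = 0.914, adjusted over 5 transcript types 1). Replicate 22 was the lowest of the 8, and the mean of the other 3 differentiated libraries was 7.59% (exact p = 0.171, smallest possible 0.0571). Against the lane 8 undifferentiated libraries alone, whose mean was 7.10%, the exact p was 0.933.

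Members were mostly scarce. The median of their mean levels was 0.670 TPM, the quartiles 0.0847 and 2.39 TPM. Of 25586, 14544 were above 0 in every library and 3214 at 0 in every library, while 1175 averaged 10 TPM or more and 33 averaged 100 TPM or more. Between 10359 and 10737 reached 1 TPM in an undifferentiated library, and 11542, 9239, 10617 and 11277 did so in replicates 21 to 24.

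Each gene's retained intron transcripts were also summed and divided by the gene's summed TPM, which gives a share that does not depend on how reads were split between its several such models. Over the 5976 protein-coding genes with a member and 5 TPM or more in each group, the median share was 14.2%, 13.2%, 13.4% and 13.8% in replicates 17 to 20 and 14.1%, 10.3%, 12.4% and 13.7% in replicates 21 to 24. The means of 13.6% ± 0.405 and 12.6% ± 1.74 (SD, n = 4 each) came from overlapping groups (exact permutation test, two-sided, p = 0.314; without replicate 22, mean 13.4%, p = 0.629). Replicate 22 had the lowest share of the 8 libraries in 2401 of the 5928 genes with a share above 0 in some library (40.5%), against 6.31% to 13.1% of genes for each of the others. A lasting majority was rare: 307 genes (5.14%) had over 50% of their TPM in such transcripts in every library, and 1118 (18.7%) had under 5% in every library.

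**Figure D1:**
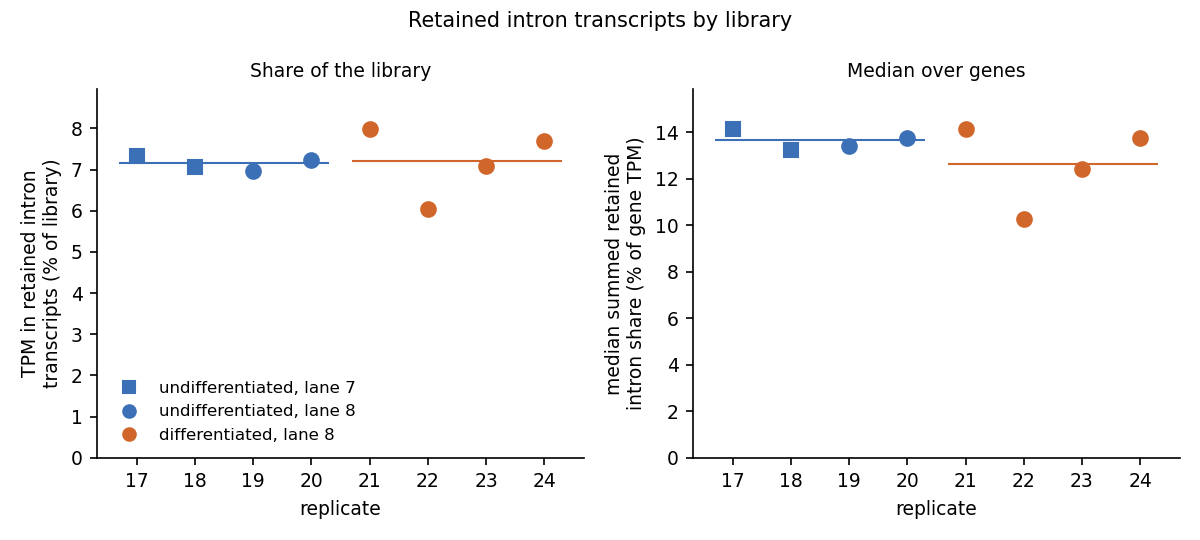
Each point is a library (squares lane 7, circles lane 8) and lines are group means. The left panel shows the percent of library TPM in retained intron transcripts of protein-coding genes, and the right panel the median over 5976 genes of the summed retained intron share. Replicate 22 is the lowest in both panels, at 6.05% and 10.3%.

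NEAT1 and MALAT1, long RNAs that stay in the nucleus, moved with the groups. NEAT1 was 111 to 133 TPM in undifferentiated and 257 to 483 TPM in differentiated libraries, and MALAT1 159 to 187 and 241 to 317 TPM (exact permutation test, p = 0.029 each, the smallest possible). Their levels are given as values beside those of the introns, and their part in the results was not tested.

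Levels of single members were compared with limma on log2(TPM+1), for transcripts that averaged at least 1 TPM. Of 56511 transcripts of all types tested, 18.3% were called higher and 10.3% lower in differentiated cells at a Benjamini-Hochberg adjusted p under 0.05. Of the 10908 members that passed the filter, 1471 (13.5%) were called higher and 891 (8.17%) lower, with a median log2 difference of 0.02 against 0.04 for all transcripts tested. The groups did not overlap for 2788 (25.6%) of these members and for 32.6% of all transcripts. The balance of directions depended on the scaling: 62.3% of the members called were higher on the TPM scale (64.0% for all transcripts), 49.3% (53.1%) after median-of-ratios scaling and 45.8% (49.6%) after quantile normalization. Leaving out replicate 17 gave 561 members lower and leaving out replicate 20 gave 554. Without replicate 22, 1999 members were higher and 918 lower.

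Most of these changes went with the gene. Over all genes tested, 33.9% were called higher and 17.4% lower. Of the 1471 members called higher, 1287 belonged to genes called higher, 22 to genes called lower and 162 to genes not called. Of the 891 called lower, 685 belonged to genes called lower, 38 to genes called higher and 168 to genes not called. Members holding a whole intron were called higher in 628 and lower in 281 of 3479, and the others in 843 and 610 of 7429.

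The share of its gene's TPM separates a change of a member from that of its gene. Shares were tested with limma after an arcsine square root transformation, in genes of 5 TPM or more in each group, for transcripts whose share averaged 10% to 90% over all 8 libraries. A member with 1 group mean outside these limits passed only through the other group, so the direction of its share was set by the filter. A call needed an adjusted p under 0.05 and a difference of 10 percentage points. Of 22951 transcripts of all types, 1.33% were called higher and 1.07% lower. Of 3698 members tested, 13 (0.352%) were called higher and 42 (1.14%) lower in differentiated cells. The median difference was -0.503 points for members, 0.247 for all transcripts tested and 0.819 for protein_coding transcripts. The groups did not overlap for 578 members (15.6%), against 16.6% of all transcripts tested. Of the members, 86 had an adjusted p under 0.05 at any size and 645 an unadjusted p under 0.05, against 745 and 4799 of the 22951 transcripts of all types.

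The 13 members called higher all had a higher TPM of their own by the limma test, and 10 belonged to genes called higher. Of the 42 called lower, 21 had a lower TPM, 19 were not called by TPM and 2 were higher (LTBP3 ENST00000525443 and PSMB10 ENST00000570985), while 22 belonged to genes called higher, 6 to genes called lower and 14 to genes not called. Among tested members, the median share difference was -0.809 points in genes called higher (1401 members), -0.214 in genes called lower (679) and -0.389 in genes not called (1618). Over all transcripts tested the same medians were 0.123, 0.295 and 0.313 points. Closest to the size threshold were MAN1B1 ENST00000536349, called at -10.0 points (adjusted p = 0.0419, limma), and TGIF1 ENST00000547233, not called at -9.89 points (adjusted p = 0.0375, limma).

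**Figure D2:**
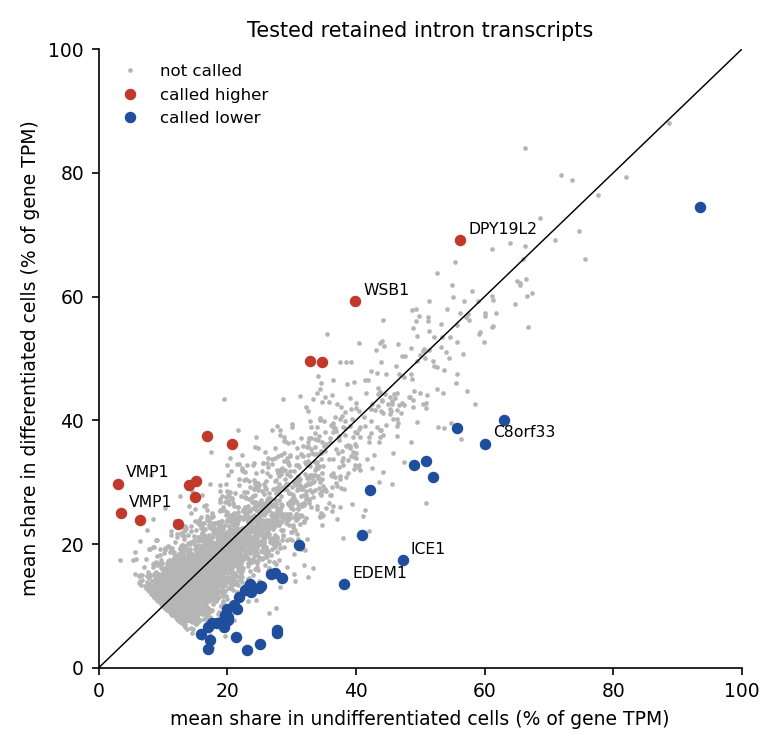
Mean share of gene TPM in differentiated against undifferentiated cells for the 3698 tested members, with the line of equal shares. The 13 members called higher lie above the line and the 42 called lower below it, with VMP1 and ICE1 farthest from it, and grey points were not called.

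Of the 55 calls by share, 55 held with untransformed shares and 42 with the logit of the share. All 55 kept their direction in every alternative in which they were tested, though for some the share filter had set it. With only the lane 8 libraries (2 against 4), 3 of the 51 that could be tested were still called: VMP1 ENST00000587470, VMP1 ENST00000592790 and ICE1 ENST00000505464. Leaving out an undifferentiated library left 16 (without replicate 17), 13 (without 18), 21 (without 19) and 16 (without 20) of them called, and leaving out a differentiated library left 45 (without 21), 44 (without 22), 23 (without 23) and 34 (without 24). VMP1 (both members), ICE1, MST1, EDEM1 and LAMA1 kept the call when any single library was left out. Members of PSMB10, FCGRT, GPR137C, MARK4, E2F6 and ARRDC3 did so too. GARS1 ENST00000470392 kept it in the 6 such fits in which it was tested, which did not include those without replicate 17 or 18. For the members described after these, the adjusted p of fits that lost the call is given beside each.

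VMP1, a membrane protein of the endoplasmic reticulum needed to form autophagosomes, had the largest rise in share among the members called. Its member ENST00000587470 was at 4.04, 3.02, 2.06 and 1.58 TPM in replicates 17 to 20 and at 53.9, 55.6, 58.3 and 63.3 TPM in replicates 21 to 24, a log2 difference of 4.04 (SE 0.20, adjusted p = 4.03e-06, limma). Its share of the gene rose from 2.98% ± 1.03 to 29.8% ± 2.84 (SD, n = 4 each, adjusted p = 0.000635, limma). It passed the share filter only through the differentiated libraries, so the direction of its share was set by the filter. Every differentiated library lay far above every undifferentiated one. This member has 2 exons, chr17:59837951-59838397, which begins inside an intron, and chr17:59839768-59840315, so it splices the last intron out, and 344 of the 447 bases of its first exon lie outside protein_coding exons.

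The second VMP1 member, ENST00000592790, is the single exon of 4325 bases at chr17:59837931-59842255 that keeps the last intron, whose splice sites are printed above. It was at 3.19, 2.81, 2.99 and 3.11 TPM in undifferentiated and at 43.2, 48.2, 53.4 and 48.5 TPM in differentiated libraries (log2 difference 3.61, adjusted p = 7.67e-08, limma). Its share rose from 3.42% ± 0.178 to 25% ± 3.6 (SD, n = 4 each, adjusted p = 0.00104, limma), a direction that the share filter set in the same way. Both members begin in the same intron and share sequence, so the division of reads between them is uncertain, but the sum of the gene's 3 members was 7.25% ± 1.17 and 55.4% ± 6.11 of its TPM.

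The main coding transcript of VMP1 did not follow. ENST00000262291 was at 26.6 ± 0.691 TPM in undifferentiated and 22.1 ± 2.41 TPM in differentiated cells (SD, n = 4 each, log2 difference -0.26, adjusted p = 0.0449, limma), while the summed gene went from 88.7 to 195 TPM. The MIR21 hairpin, a precursor of a microRNA studied widely in cancer, occupies bases 3336 to 3407 of ENST00000592790. The separate row of MIR21 was at 0 TPM in every library, so the table holds no measure of the microRNA itself.

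**Figure D3:**
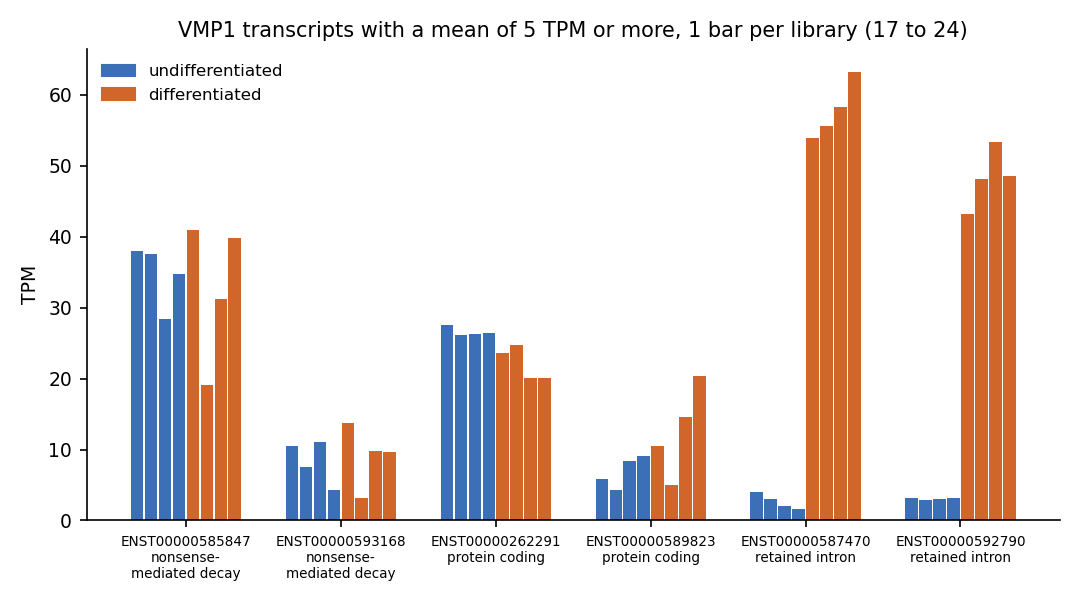
TPM of the VMP1 transcripts with a mean of 5 TPM or more, 1 bar per library in the order 17 to 24. The bars of both retained intron transcripts are under 5 TPM in undifferentiated and over 43 TPM in differentiated libraries, and the coding transcript ENST00000262291 has no such step.

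WSB1, a substrate receptor of a ubiquitin ligase, had the most abundant member called higher by share. ENST00000467843 was at 34.5, 29.1, 30.8 and 32.8 TPM in replicates 17 to 20 and at 162, 135, 141 and 146 TPM in replicates 21 to 24. Its share rose from 39.9% ± 1.10 to 59.3% ± 5.41 (SD, n = 4 each, adjusted p = 0.0146, limma) as the gene rose from 79.7 to 248 TPM. This transcript carries most coding exons and 252 bases of intron in a 1529-base exon. The call was lost without replicate 18 or 20 (adjusted p 0.050 to 0.0591, limma).

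INTS3, a subunit of the Integrator complex that cleaves nascent small nuclear RNAs, had a member that keeps a pair of neighbouring introns. The 1799-base exon of ENST00000481797 holds the 208-base intron printed above and the 1325-base intron after it. It was at 5.69, 4.95, 4.93 and 5.23 TPM in undifferentiated and at 17.1, 8.45, 13.3 and 15.7 TPM in differentiated libraries, lowest of these in replicate 22. Its share rose from 14.1% ± 1.25 to 29.6% ± 6.08 (SD, n = 4 each, adjusted p = 0.0259, limma), with the gene at 37.0 and 45.6 TPM. Leaving out any single library except replicate 22 gave an adjusted p of 0.0512 to 0.0848 (limma).

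MST1, the ligand of the receptor RON, has close pseudogene copies, so its values are uncertain. Its member ENST00000494809, with the 120-base intron, held 8.78%, 6.27%, 4.15% and 6.82% of the gene in replicates 17 to 20 and 19.3%, 24.9%, 23.7% and 27.7% in replicates 21 to 24 (adjusted p = 0.00658, limma). Its level was under 1 TPM in undifferentiated cells and 4.86 to 6.52 TPM in differentiated ones. This member passed the share filter only through the differentiated libraries, so the direction of its share was set by the filter. SIGIRR, an inhibitory receptor of the interleukin 1 family, went from 32.9% ± 1.53 to 49.5% ± 4.98 for ENST00000527987 (SD, n = 4 each, adjusted p = 0.0191, limma). The adjusted p was 0.0567 to 0.0655 on leaving out any single undifferentiated library.

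The other members named among the rises were smaller or less stable. CAMTA2, a calmodulin-binding transcription factor, rose from 16.9% to 37.4% for ENST00000572192 (adjusted p 0.0271, and 0.0502 to 0.0865 without replicate 17, 18, 19, 20 or 23) with no call for the gene. CHD9, a chromatin remodeller, rose from 20.7% to 36.2% for ENST00000219084 (0.0413, and 0.10 to 0.122 without the same libraries), a model of 8739 bases with 48 outside protein_coding exons. STK19 ENST00000491861 rose from 15.2% to 30.2% (0.0479, and 0.0573 to 0.125 on leaving out any single library). MFSD8, a lysosomal membrane protein, rose from 34.7% to 49.5% for ENST00000504126 (0.0442, and 0.0738 to 0.126 without replicate 17, 18, 20, 21, 23 or 24). DPY19L2, needed to shape the sperm head and with close paralogs, rose from 56.1% to 69.1% for ENST00000536494 (0.0210, and 0.0543 to 0.0773 on leaving out any single library except replicate 21 or 22). All p-values in this paragraph are limma's, adjusted over the transcripts tested.

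ICE1, the scaffold of the little elongation complex that transcribes small nuclear RNA genes, had the largest fall in share among the members called. Its member ENST00000505464 was at 16.4, 17.5, 14.4 and 15.3 TPM in replicates 17 to 20 and at 2.92, 2.76, 2.70 and 2.78 TPM in replicates 21 to 24, a log2 difference of -2.15 (SE 0.08, adjusted p = 1.14e-06, limma). Its share fell from 47.2% ± 1.48 to 17.4% ± 2.17 (SD, n = 4 each, adjusted p = 0.000658, limma), and the libraries of each group lay close together. It is a short model whose last exon, chr5:5437080-5437836, runs 722 bases into an intron, so it reports a truncated transcript and not a whole retained intron. The coding transcript ENST00000296564 was at 17.7 ± 0.635 and 13.5 ± 2.28 TPM, and the summed gene at 33.6 and 16.3 TPM.

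Several falls occurred in genes that rose. EDEM1, which directs misfolded glycoproteins of the endoplasmic reticulum to degradation, went from 17.0 to 41.6 TPM. Its member ENST00000492751 was at 5.73, 6.41, 6.60 and 7.23 TPM in undifferentiated and at 9.95, 3.53, 4.30 and 5.63 TPM in differentiated libraries. Its TPM was not called, with overlapping groups, and its share fell from 38.2% ± 3.34 to 13.6% ± 4.32 (SD, n = 4 each, adjusted p = 0.00655, limma). ABHD17A, which removes palmitate from proteins, went from 12.5 to 20.6 TPM. Its member ENST00000588598, with the 2233-base intron whose splice sites are above, was level at 7.97, 8.07, 7.43 and 8.08 TPM and then 8.67, 7.34, 7.85 and 8.14 TPM (log2 difference 0.02, adjusted p = 0.894, limma). Its share fell from 63.1% ± 4.59 to 40.1% ± 9.58 (adjusted p = 0.0411, limma; 0.0586 to 0.121 on leaving out any single library except replicate 21 or 22).

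C8orf33 ENST00000530455 had a TPM of 22.0 to 25.3 in undifferentiated and 18.5 to 35.5 in differentiated libraries, and a share that fell from 60.0% ± 3.53 to 36.2% ± 9.46 as the gene went from 39.5 to 79.0 TPM (adjusted p = 0.0344, limma; 0.0545 to 0.108 on leaving out any single library except replicate 22 or 24). SLC4A11, an ion transporter of the cell surface, had a member with the 254-base intron printed above. ENST00000470631 held 41.4%, 40.7%, 44.7% and 37.1% of the gene in replicates 17 to 20 and 24.4%, 21.2%, 14.2% and 26.5% in replicates 21 to 24 (adjusted p = 0.0196, limma; 0.050 to 0.0682 on leaving out any single undifferentiated library). The gene was low, at 5.81 and 6.63 TPM. PEAR1, a platelet receptor, fell from 52.1% to 30.9% for ENST00000465101 (adjusted p = 0.0442, limma; 0.0879 to 0.124 on leaving out any single library except replicate 21 or 22).

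Members of 4 other genes fell to low levels. All 4 passed the share filter only through the undifferentiated libraries, so the direction of their shares was set by the filter. LAMA1, a laminin chain of basement membranes, held 26.6%, 27.6%, 27.0% and 29.97% of its gene in ENST00000490190 in undifferentiated cells and 4.06%, 1.34%, 7.24% and 11.8% in differentiated ones (adjusted p = 0.0125, limma). SBNO2 ENST00000590446 fell from 27.7% to 5.6% (adjusted p = 0.0413, limma; 0.0613 to 0.120 on leaving out any single library except replicate 21 or 24). TACC2, a centrosomal coiled-coil protein, had 25.4%, 22.6%, 19.8% and 32.8% in ENST00000368997, the member with the 339-base intron, and then 0 in replicates 21, 22 and 23 and 15.5% in replicate 24 (adjusted p = 0.0447, limma; 0.0678 to 0.128 on leaving out any single library except replicate 24). LGALS8, a galectin that binds sugars of damaged vesicles, had 27.4%, 18.9%, 20.0% and 25.8% in ENST00000528782 and then 0 in replicates 21, 22 and 24 and 11.2% in replicate 23 (adjusted p = 0.0270, limma; 0.0546 to 0.0878 on leaving out any single library except replicate 22 or 23). An exact 0 beside such a value can be a failed estimate, and this LGALS8 model has only 20 bases outside protein_coding exons.

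**Figure D4:**
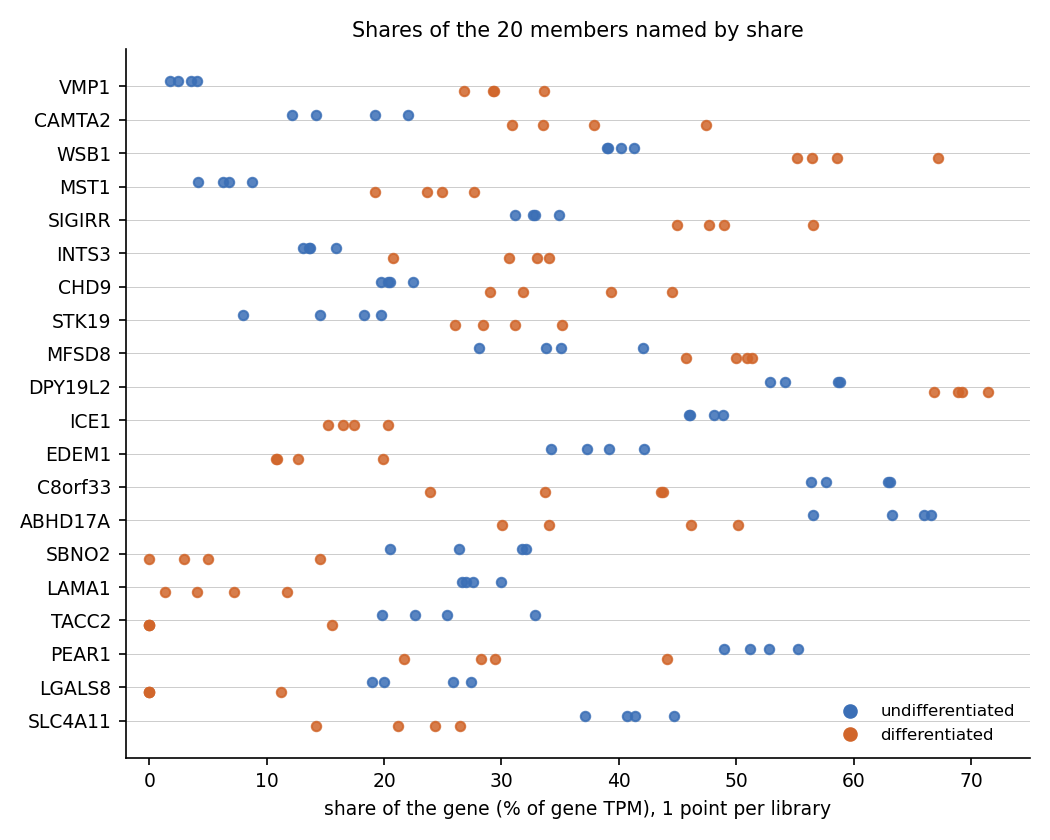
Share of the gene in each library for the 20 members named by share, the 10 rises above and the 10 falls below. No member's groups overlap, because members were named only if their groups were apart. VMP1 has the widest gap among the rises and ICE1 among the falls, and TACC2 and LGALS8 each have 3 differentiated libraries at 0.

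Of 30 further members called by share, 28 fell by 10.0 to 18.9 points. PSMB10, a subunit of the immunoproteasome, was among them, with ENST00000570985 going from 93.5% to 74.5% of its gene, and so was FCGRT ENST00000595881. Both kept the call when any single library was left out, and were chosen here after their values were seen. GPR137C ENST00000555369, MARK4 ENST00000588533, E2F6 ENST00000471343 and ARRDC3 ENST00000511391, also falls, kept it in the same fits. PAQR6 ENST00000491107 and DZIP1L ENST00000473850 were the 2 rises, and each lost the call without at least 1 library (adjusted p, limma, 0.0513 to 0.0748 and 0.0502 to 0.106).

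Summed over all retained intron transcripts of a gene, the share was tested in 3428 genes, under the same limits on the average share. Of these, 0.758% (26) were called higher and 2.6% (89) lower in differentiated cells, with a median difference of -1.07 points. Over the 5928 genes not filtered on share size, the mean was lower in 3571 and higher in 2357, or lower in 3129 and higher in 2793 without replicate 22. In 18 genes every undifferentiated library was above 50% and every differentiated one below, and 4 genes did the opposite (ZCCHC8, ZNF638, OBSL1 and SIGIRR). Leaving out replicate 17, 18, 19, 20 or 23 brought the genes called to between 10 and 13 higher and 43 and 49 lower. Lane 8 alone gave 1 higher, VMP1, and 2 lower, ICE1 and IRF9. ICE1 has 1 member, so its summed share is the share of that member. The filter set the direction for genes with 1 group mean outside its limits, such as VMP1 and IRF9.

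IRF9, the DNA-binding subunit of the interferon-activated factor ISGF3, had nearly all of its TPM in its 8 retained intron models before differentiation. The summed share was 89.98%, 91.0%, 93.3% and 96.4% in replicates 17 to 20 and 70.6%, 74.6%, 64.3% and 64.1% in replicates 21 to 24 (adjusted p = 0.00304, limma), and it stayed called when any single library was left out. Those of its models with a mean of 1 TPM or more summed to 12.5 and 49.2 TPM, and such protein_coding transcripts to 0.344 and 20.5 TPM. The sums given for CTSA and FCGRT have the same limit. CTSA, the lysosomal protective protein, fell from 64.2% ± 2.59 to 39.1% ± 5.0 (adjusted p = 0.00304, limma), with its members at 22.8 and 40.3 TPM and its coding transcripts at 12.7 and 60.2 TPM. FCGRT, the receptor that recycles antibodies, fell from 40.7% ± 5.36 to 17.5% ± 2.58 (adjusted p = 0.00304, limma), with members at 6.64 and 8.81 TPM and coding transcripts at 7.78 and 37.7 TPM. In all 3 genes the share fell while the members' own level was higher in the differentiated mean. MELTF, a membrane transferrin, fell from 52.1% to 29.5% (adjusted p = 0.0176, limma; 0.0550 to 0.0654 without replicate 17, 19, 20 or 23).

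Rises of the summed share came in genes that were lower, level or higher. ICA1, which binds membranes of secretory granules, fell from 175 to 80.8 TPM, and its summed share was 30.9%, 25.7%, 26.6% and 25.8% in replicates 17 to 20 and 46.4%, 39.6%, 41.7% and 42.5% in replicates 21 to 24 (adjusted p = 0.00803, limma). Its members went from 47.7 to 34.5 TPM and its coding transcripts from 108 to 36.1 TPM. ZCCHC8, the scaffold of a nuclear complex that feeds RNA to the exosome, stayed at 16.2 TPM while its summed share went from 45.1% ± 1.31 to 65.5% ± 7.44 (adjusted p = 0.0160, limma; 0.0558 to 0.0566 without replicate 17, 18 or 19). Replicate 22 was the highest, at 75.9%. WDR73 went from 48.8% to 65.9% (adjusted p = 0.0283, limma; 0.0669 to 0.0932 on leaving out any single library except replicate 21 or 22), and WSB1 from 52.8% to 69.2% (adjusted p = 0.00638, limma). The WDR73 members were at 19.8 and 20.6 TPM in sum, while its coding transcripts were at 8.83 to 11.0 TPM in undifferentiated and at 3.53 to 5.73 TPM in differentiated libraries. The members and coding sums of these genes were looked at after the shares were seen. They cover only transcripts with a mean of 1 TPM or more, so they can fall short of the sums behind the shares.

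Genes known for detained or regulated introns did not pass the summed share test in either direction. Of the genes chosen by name, PNISR and VAMP2 had no member, and none of the 15 that were tested was called by limma. At an unadjusted p under 0.05, 3 were higher and 1 lower, against 747 of all 3428 genes tested in either direction. CLK1, a kinase of splicing factors whose own intron is detained, was at 52.8%, 47.7%, 47.1% and 49.3% in undifferentiated and at 55.1%, 42.1%, 44.7% and 51.2% in differentiated libraries, with overlapping groups (difference -0.958 points, SE 3.23, adjusted p = 0.876, limma). TAF1D, a factor of ribosomal RNA transcription, was at 58.0% and 59.5%, LUC7L, a U1 snRNP protein, at 51.5% and 52.0%, and SNRNP70, the U1 70K protein, at 53.9% and 55.4%.

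The nearest to a call were SRSF5, MAT2A and TRA2A. SRSF5, an SR protein, was at 19.3%, 19.8%, 18.1% and 19.4% and then 28.4%, 27.7%, 25.2% and 27.3%, a difference of 8.02 points that fell short of 10 (adjusted p = 0.0276, limma). Its most abundant member, ENST00000556184, went from 27.2, 23.2, 27.2 and 26.6 TPM to 50.8, 49.7, 46.5 and 50.8 TPM (adjusted p = 4.05e-05, limma), with the gene at 284 and 297 TPM. MAT2A, which makes S-adenosylmethionine and whose last intron is known to be retained when that product is plentiful, was at 23.9% ± 0.593 and 15% ± 3.6 (adjusted p = 0.0502, limma; called without replicate 21, limma adjusted p 0.0417). Its member ENST00000469221 holds whole a 255-base intron (chr2:85541378-85541632) that is not the last one. This member was at 44.3, 39.8, 37.1 and 42.6 TPM and then 20.3, 4.91, 12.2 and 12.6 TPM, lowest in replicate 22. Its log2 difference was -1.77 (adjusted p = 0.00552, limma, and 0.0669 with lane 8 only), while the gene fell from 406 to 238 TPM. TRA2A, a splicing activator, was at 31.3% ± 1.52 and 40.2% ± 3.20 (adjusted p = 0.0578, limma; called without replicate 22, limma adjusted p 0.0144). The groups did not overlap in any of these 3 genes.

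In the others the groups overlapped, apart from GABBR1, a subunit of the GABA-B receptor, at 64.8% to 69.5% and 46.2% to 64.7% (adjusted p = 0.234, limma). OGT, which attaches GlcNAc to proteins, was at 37.9% and 29.6%, with 18.9% in replicate 22. HNRNPH1 was at 64.1% and 69.8%, RBM39 at 44.0% and 50.1%, TIA1 at 53.7% and 51.2%, CLK4 at 34.5% and 34.2%, NXF1 at 21.0% and 22.6%, and SRSF7 at 11.4% and 9.85%.

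**Figure D5:**
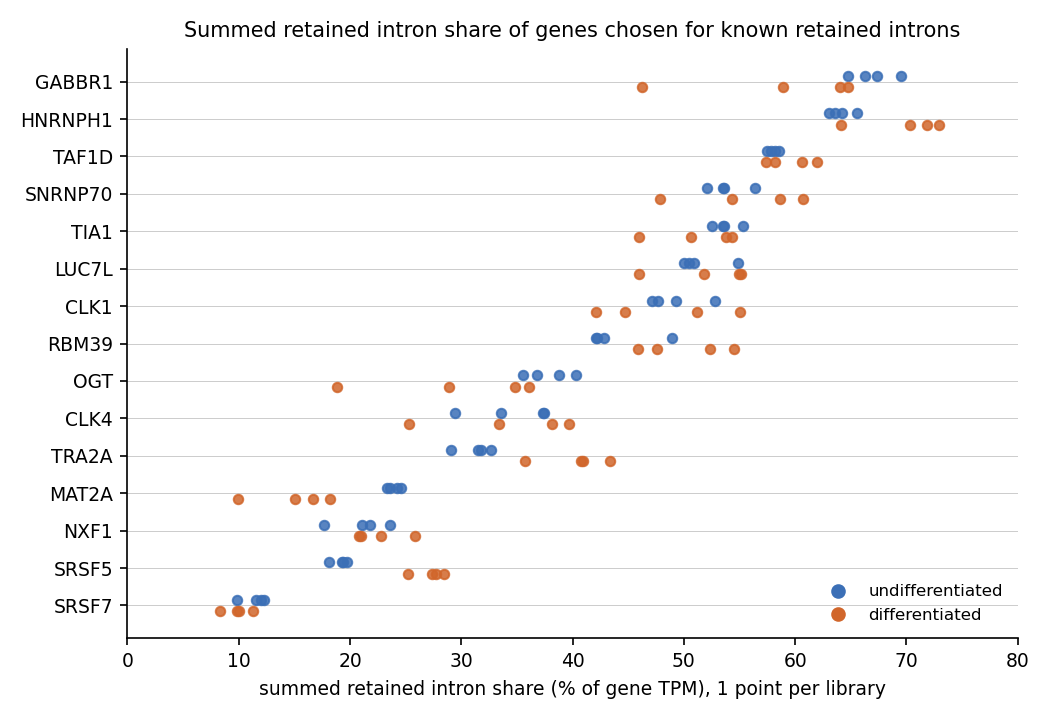
Summed retained intron share in each library for the 15 chosen genes that were tested, ordered by the undifferentiated mean. None was called by limma, and the groups are apart for SRSF5, TRA2A, MAT2A and GABBR1.

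Gene lists were described by their counts, beside 1471 higher and 891 lower of 10908 for all members tested by TPM. Members of cytosolic ribosomal protein genes were called lower in 82 and higher in 1 (RPS7 ENST00000481006) of 169 tested, with a median log2 difference of -0.45, and lower in 91 and 97 under the median-of-ratios and quantile scalings. In cell cycle and DNA replication genes 15 were lower and 1 higher of 67. The last was MCM7 ENST00000467516, of a helicase subunit, while another member of that gene, ENST00000463722, was lower (not called with lane 8 only, limma adjusted p 0.105). Retinoid genes had 9 higher and 1 lower (FABP5 ENST00000486269) of 26, among the former DHRS3 ENST00000482265, of an enzyme that reduces retinal. That DHRS3 member was at 0 to 0.0853 TPM in undifferentiated and at 4.22 to 6.62 TPM in differentiated libraries. It passed the filter of a mean of 1 TPM only through the differentiated libraries, so its direction was set by the filter. Mesenchymal and matrix genes had 9 higher and 1 lower (AGRN ENST00000479707) of 17, among the former SPARC ENST00000520687, of a secreted matrix protein. Cholesterol and fatty acid genes had 23 higher and 14 lower of 68. Apart from AGRN, the members named here were chosen after their values were seen.

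Lists of the splicing machinery had calls by TPM in both directions. SR proteins and other splicing regulators had 28 higher and 11 lower of 154, hnRNP genes 5 and 12 of 72, core spliceosome genes 7 and 6 of 90 (5 and 12, or 3 and 13, under the other scalings), genes of detained introns 16 and 10 of 79 (14 and 15, or 12 and 16), and chromatin regulators 15 and 6 of 103 (15 and 13, or 12 and 14). No gene was called by its summed share among 33 tested splicing regulators, 8 hnRNP, 21 core spliceosome, 5 minor spliceosome, 15 detained intron, 8 nonsense-mediated decay, 7 retinoid, 11 synapse, 11 neurite, 26 chromatin, 14 mitochondrial, 3 noradrenergic and 8 ribosomal protein genes. These lists share members, and with the neuroblast markers they hold 162 distinct tested genes, of which 13 were higher and 10 lower at an unadjusted p under 0.05 by limma, against 747 of all 3428 genes tested.

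Calls by summed share lay in 5 lists, beside 0.758% higher and 2.6% lower of all 3428 genes tested. Mesenchymal and matrix genes had 3 lower of 6 tested: AGRN, the organiser of the neuromuscular junction, from 71.9% ± 2.59 to 49.4% ± 5.55 (adjusted p = 0.00465, limma), COL6A1, a collagen VI chain, from 22.4% to 9.80% (0.0176, and 0.0584 to 0.0666 without replicate 17, 18, 19 or 23), and LOXL2, a collagen cross-linking enzyme, from 25% to 10.6% (0.0410, and 0.0581 to 0.126 without replicate 17, 18, 20, 21, 22 or 24). The LOXL2 groups overlapped, at 16.5% in undifferentiated replicate 19 and 16.8% in differentiated replicate 23. The share filter set the direction of COL6A1. AGRN stayed at 26.5 and 26.8 TPM as a gene, and its fall was still called when any single library was left out. THOC1, of the complex that exports mRNA, was the only one of 18 export and 3 prime end genes called, rising from 56.2% to 71.5% at 74.7 and 73.6 TPM (adjusted p = 0.0148, limma; 0.0507 without replicate 19). RBL2, a pocket protein that holds cells in quiescence, fell from 48.9% to 35.3% (adjusted p = 0.0170, limma; 0.0581 to 0.0627 without replicate 17, 18 or 19). BRCA2, of homologous recombination, rose from 19.5% to 43.4% (adjusted p = 0.0349, limma; 0.0777 to 0.112 without replicate 17, 18, 19, 23 or 24). Its groups overlapped, at 27.5% in undifferentiated replicate 20 and 27.1% in differentiated replicate 21. BRCA2 has 1 member, which was not called in the test of single transcript shares. PPARA, a fatty acid receptor, fell from 24.9% to 13.0% (adjusted p = 0.0157, limma; 0.0569 to 0.0605 without replicate 17 or 18).

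By single members, the lists held AGRN ENST00000479707 (19.6% to 8.61%), COL6A1 ENST00000466285 (20.0% to 9.52%) and PPARA ENST00000493286 (24.9% to 13.0%), each called lower by share. Their adjusted p-values by limma were 0.0212, 0.0393 and 0.0235. PPARA has 1 member, so this is the same measurement as its summed share above. The differentiated means of AGRN and COL6A1 were under 10%, so the share filter set their direction. AGRN lost the call without replicate 17, 18, 19, 20 or 23 (0.0581 to 0.0714), COL6A1 on leaving out any single library except replicate 21 (down to -9.35 points, adjusted p up to 0.117) and PPARA on leaving out any single library except replicate 21 or 22 (0.0533 to 0.0833).

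The 6 most abundant members belonged to RGS5 and to genes of translation. RGS5, a regulator of G protein signalling, had ENST00000525894 at 1820, 2056, 1763 and 1885 TPM in replicates 17 to 20 and at 2962, 831, 2192 and 3111 TPM in replicates 21 to 24. Replicate 22 lay under every undifferentiated library and the other 3 above them. The difference was not called with all libraries (log2 0.11, adjusted p = 0.865, limma) and was called without replicate 22 (log2 0.54, adjusted p = 0.0138, limma). Its share was 55.4% ± 1.26 and 39.0% ± 11.6, with 22.2% in replicate 22 (adjusted p = 0.129, limma), and without that library it was called lower by 10.8 points (adjusted p = 0.0339, limma). The coding transcript ENST00000313961 went from 1354 to 3125 TPM, so the whole gene was called higher.

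RPS27A, RPL4, RPS23, EEF1A1 and RACK1, genes of ribosomal proteins, an elongation factor and a ribosome scaffold, each had a member that fell in TPM while its share was not called. RPL4 ENST00000561775 was at 1004, 991, 1063 and 995 TPM and then 624, 840, 675 and 624 TPM (log2 difference -0.56, adjusted p = 0.00276, limma), as 23.8% and 26.8% of a gene that fell from 4251 to 2570 TPM. The log2 differences of RPS27A ENST00000478196, RPS23 ENST00000504293, RACK1 ENST00000508963 and EEF1A1 ENST00000488500 were -0.42, -0.64, -0.48 and -0.69, with groups that did not overlap. The EEF1A1 call was lost without replicate 17, 18, 20 or 23 (adjusted p, limma, 0.0546 to 0.0844), under quantile normalization (0.171) and with lane 8 only (0.156). The RACK1 call was lost under quantile normalization (0.0736) and the RPS27A call with lane 8 only (0.0558). These genes have many processed pseudogenes, which makes the assignment of their reads uncertain.

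The largest rises of level included both VMP1 members. CFI, a protease of the complement system, had ENST00000504853 at 0.0802, 0.0179, 0.0556 and 0.243 TPM and then 33.6, 31.5, 29.8 and 36.7 TPM (log2 difference 4.95, adjusted p = 6.5e-08, limma), in a gene that went from 0.278 to 288 TPM. This CFI member passed the filter of a mean of 1 TPM only through the differentiated libraries, so its direction was set by the filter. COL3A1, a fibrillar collagen, had ENST00000470167 at 0, 0, 1.42 and 2.86 TPM and then 64.0, 2.88, 36.6 and 101 TPM, with replicate 22 barely above the undifferentiated libraries (adjusted p = 0.0157, limma; 0.154 with lane 8 only). CTSB ENST00000420692, of a lysosomal protease, was at 1.26 to 2.10 TPM in undifferentiated and at 10.8 to 31.2 TPM in differentiated libraries, or 3.30% and 2.97% of its gene (log2 difference 3.13, adjusted p = 0.000186, limma).

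Among the largest falls, CHGA, a protein of secretory granules, had ENST00000556876 at 23.1, 22.2, 21.8 and 24.3 TPM and then 2.57, 2.27, 1.94 and 1.99 TPM (log2 difference -2.91, adjusted p = 3.71e-07, limma), at 10.4% and 8.01% of a gene that fell from 220 to 27.4 TPM. XRCC5 ENST00000476360, of the Ku80 subunit in DNA end joining, fell from 23.9, 24.3, 25.8 and 29.8 TPM to 4.71, 1.05, 1.86 and 4.37 TPM (adjusted p = 0.000334, limma), while the gene went from 397 to 318 TPM. GARS1, the glycyl-tRNA synthetase, had 2 such members. ENST00000470392 fell from 17.4% ± 1.87 to 4.43% ± 1.95 of the gene (SD, n = 4 each, adjusted p = 0.0106, limma) and ENST00000484093 went from 13.0% to 3.33%, under the mean share needed for the test. The former passed the share filter only through the undifferentiated libraries, so the direction of its share was set by the filter. The GARS1 gene itself fell from 128 to 60.4 TPM, so the members fell by more than the gene.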

How the data were processed

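For each of 8 libraries the authors deposited TPM values of 194993 Ensembl transcripts. Salmon, FastQC 0.11.2 and GRCh37 are named, without their roles, per the submitters' processing notes, and per the labels' protocols the libraries came from an Illumina kit that keeps strand. For the annotation release, the Salmon settings and any use of strand in counting, values were not given in the sources used here. Transcripts were matched by identifier to GENCODE 29 on GRCh38 (180930, 92.8%), which may not be the authors' annotation, so types, genes and positions are those of GENCODE 29. Salmon divides reads between overlapping models, so members of a gene and genes with close copies have uncertain values.

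Tests used limma 3.58.1 in R 4.3.3, two-sided, with group as sole term and Benjamini-Hochberg adjustment over all transcripts or genes tested. Levels were log2(TPM+1) with a mean of 1 TPM or more, and fold changes on this scale understate those of low transcripts. Shares were fitted after the arcsine square root. Library values had exact permutation tests. Permutation tests ran in scipy 1.17.1 and tables were joined with pandas 2.3.3 and numpy 2.4.6 (Python 3.11.15). The limma fits of transcript TPM and of transcript share were tested on simulated data, and the other tests were not.

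Members and lists were chosen with earlier results of these data known. Members are named by rule: the 10 largest rises and 10 largest falls among members called by share with groups apart, 1 per gene, up to 3 called per list, the 6 highest levels, the 5 largest rises and 5 largest falls in TPM, and 18 fixed genes. Some of these are not reported here. Summed shares are named for the largest called differences. Alternatives were other scalings, filters, pseudocounts and transformations, lane 8 only, and leaving out each library.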

Additional observations from a re-analysis of the deposited data

Results flagged for a closer look

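Among 154 groups of 4 libraries examined, 7 (4.55%) held a library whose distance from its nearest neighbour took up most of the range of the group, and chance gives about 1 in 20. The protein_coding transcripts of protein-coding genes made up 76.6% of the TPM of differentiated replicate 22 and 71.9% to 72.6% of that of the other differentiated libraries. The member of SNRNP70, ENST00000597936, was at 29 TPM in the same library and at 44.7 to 45.5 TPM in the others.

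The share of TACC2 ENST00000368997 was 15.5% in differentiated replicate 24 and 0 in the other 3, and that of LGALS8 ENST00000528782 was 11.2% in differentiated replicate 23 and 0 in the other 3. In undifferentiated cells, RPS27A ENST00000478196 was at 870 TPM in replicate 19 against 1012 to 1038 TPM, SRSF5 ENST00000556184 was at 23.2 TPM in replicate 18 against 26.6 to 27.2 TPM, and the summed retained intron share of RBM39 was 49.0% in replicate 19 against 42.1% to 42.8%.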

How the results depend on the processing

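Depth is unknown, several models differ from coding transcripts by few bases, and with 4 libraries a group most share calls lie close to the threshold. No called value changed sign, though filters had set the sign of some. The difference in the library share of members, not called and 0.0571 points with all libraries, ran from -0.207 to 0.443 points on leaving out 1 library, and RGS5 ENST00000525894, not called by TPM with all libraries, from -0.10 to 0.54 (log2). The members called by TPM were mostly higher as deposited and split nearly evenly with median-of-ratios scaling (1282 higher and 1318 lower). With quantile normalization more were lower than higher (1253 higher and 1480 lower). With lane 8 only, 660 members were higher and 252 lower by TPM, 2 and 1 by share, and 1 gene was higher and 2 lower by summed share, with 1886 genes lower by gene TPM. A minimum mean of 5 TPM gave 598 higher and 414 lower by TPM, and median-of-ratios scaling 4457 genes lower by gene TPM. In genes of 20 TPM or more, 16 of 2239 members were lower by share. By summed share, 17 genes were higher and 37 lower of 2185 there. Shares of 5% to 95% with a 5 point minimum gave 33 higher and 95 lower, and no minimum difference gave 24 higher. Leaving out 1 library gave 1100 to 1999 members higher and 554 to 1058 lower by TPM, 3 to 18 higher and 10 to 42 lower by share, and 10 to 28 genes higher and 43 to 98 lower by summed share. Where a count moved, the cause was not tested. No paired analysis was possible because the groups share no replicate numbers.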
